A study of Drosophila melanogaster with 2 samples.

Results

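The peaks described here are the 584 peaks of an eGFP-tagged Fer1 protein whose summits lay on the X chromosome and more than 1000 bp from every annotated transcription start site (TSS). They were taken from the authors' dm6 list of 7329 peaks past their threshold of reproducibility (irreproducible discovery rate, IDR), of which 1309 lay on X. The other 725 X summits lay within 1000 bp of a TSS, and 2189 of the autosomal summits were distal by the same rule. A summit is the position of highest enrichment in a peak, and the genes came from Ensembl. The data were chromatin immunoprecipitation followed by sequencing (ChIP-seq) from whole Drosophila melanogaster embryos of both sexes, collected at 6 to 24 h. All embryos came from a line that stably carries a transgene in which GFP is fused to the C-terminal end of Fer1, and an antibody against GFP was used. The 2 biological replicates formed 1 group, so that no treatment, genotype or time point could be compared, and an untagged or input library was not analysed here. Chromatin from all cell types of male and female embryos was mixed, so that neither the cells nor the sex in which a site was bound can be told apart. Males carry a single X. Without an input library, an effect of X copy number on signal or peak counts cannot be told apart in comparisons of X with autosomes. Peak lists hold no read totals, so the sequencing depth is unknown, and the intervals given cover counting error over peaks only.

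Fer1 belongs to the basic helix-loop-helix (bHLH) transcription factors and is related to PTF1A of mammals. Such proteins form dimers that recognise the E-box, which has the form CANNTG. Sequence far from TSSs, mostly introns and the space between genes, holds many of the enhancers through which such factors act. Male flies have a single X, and the MSL complex raises the transcription of X-linked genes in males.

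The DNA under the strongest of these peaks was rich in A and T. The windows below hold 101 bp of the plus strand of dm6, centred on the summit, with runs of 6 or more A or T bases in capitals. Shown are the 5 summits with the highest signal and 3 others that show the range among the 12 highest. Each lay in an intron of the gene named.
CG32772, chrX:4910319-4910419: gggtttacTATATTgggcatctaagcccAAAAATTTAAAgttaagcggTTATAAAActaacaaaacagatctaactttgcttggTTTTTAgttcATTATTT
Tlk, chrX:3742157-3742257: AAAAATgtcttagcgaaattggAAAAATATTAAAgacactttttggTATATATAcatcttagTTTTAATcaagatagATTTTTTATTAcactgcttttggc
NFAT, chrX:13640464-13640564: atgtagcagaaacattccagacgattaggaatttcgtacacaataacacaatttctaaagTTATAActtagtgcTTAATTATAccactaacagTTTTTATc
CG3726, chrX:5918869-5918969: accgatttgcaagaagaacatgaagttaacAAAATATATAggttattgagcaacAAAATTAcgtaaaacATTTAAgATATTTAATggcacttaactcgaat
norpA, chrX:4324939-4325039: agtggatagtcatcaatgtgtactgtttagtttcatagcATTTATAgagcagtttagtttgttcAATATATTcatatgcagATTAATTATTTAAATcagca
bbx, chrX:21366516-21366616: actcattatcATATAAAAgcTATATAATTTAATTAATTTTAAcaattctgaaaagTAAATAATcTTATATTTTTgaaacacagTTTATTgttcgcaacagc
Raf, chrX:2297684-2297784: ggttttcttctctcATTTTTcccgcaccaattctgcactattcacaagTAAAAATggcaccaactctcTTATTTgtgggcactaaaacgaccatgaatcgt
Hr4, chrX:1951862-1951962: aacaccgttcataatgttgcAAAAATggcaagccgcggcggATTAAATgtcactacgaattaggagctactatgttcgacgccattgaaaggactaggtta

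The summit window at bbx had the lowest G+C content of these, 20.8%, and a run of 22 A or T bases. The windows at Raf and Hr4 held 40.6% and 43.6% G+C, and their longest such runs were of 7 bp. Of these 8 windows only that of norpA held an E-box, CATATG, which starts at 4325011. A window of the same width was also read 400 bp to a randomly drawn side of each summit, and is called the flank here. The flanks of Tlk, Raf and bbx show the contrast in base content.
Tlk flank, chrX:3741757-3741857: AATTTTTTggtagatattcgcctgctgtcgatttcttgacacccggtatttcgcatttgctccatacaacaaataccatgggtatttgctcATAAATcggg
Raf flank, chrX:2297284-2297384: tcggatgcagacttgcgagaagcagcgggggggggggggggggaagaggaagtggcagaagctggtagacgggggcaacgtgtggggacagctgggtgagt
bbx flank, chrX:21366116-21366216: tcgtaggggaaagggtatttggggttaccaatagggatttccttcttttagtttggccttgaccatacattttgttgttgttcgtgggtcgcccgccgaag

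G+C content rose from 24.8% at the summit to 40.6% in the flank at Tlk, from 40.6% to 66.3% at Raf and from 20.8% to 47.5% at bbx. The flanks of Raf and bbx held no run of 6 or more A or T bases. An E-box was present in the flanks of Tlk (CATTTG) and Raf (CAGCTG) and absent from that of bbx. The flank of CG3726 went the other way, with 25.7% against 27.7% at the summit.

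The strongest distal X peak lay in an intron of CG32772, with its summit at position 4910369 and 1267 bp downstream of the nearest TSS. Its signal, in the authors' units, was 2492 in the list of the pooled replicates, 1479 in replicate 1 and 1021 in replicate 2. It ranked 8 among all 7329 peaks, 9 in replicate 1 and 8 in replicate 2. The next lay 2310 bp from a TSS of Tlk, which encodes the Tousled-like kinase, with a pooled signal of 2118 (1260 in replicate 1 and 869.7 in replicate 2). Both stood well above the median of the 584 peaks, 169.8, and the highest was 14.7 times that median. Signal of these peaks had an interquartile range of 131.5 to 264.0 and a lowest value of 110.3, near the list's own limit.

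The next 8 peaks in order of signal had pooled values from 1386 to 833.0. NFAT, a transcription factor of the NFAT family, had a summit with a pooled signal of 1386 (802.4 in replicate 1 and 594.9 in replicate 2). It was in an intron and 1661 bp upstream of the nearest of the gene's TSSs. CG3726 followed with 1344 (797.3 and 561.7). norpA, the phospholipase C of phototransduction, had 1320 (809.7 and 517.4), and Raf, the kinase between Ras and MEK, had 1197 (736.1 and 470.3). A summit in baz, which encodes the polarity protein Bazooka, had 1010 (606.6 and 406.8), in a noncoding or untranslated exon, and its nearest TSS was that of lncRNA:CR44026. Hr4, a nuclear receptor of the ecdysone response, had 876.9 (514.9 and 351.8). bbx, an HMG-box gene, had 870.0 (504.4 and 381.9) at a site that also lies within the span of waw, and Pits had 833.0 (499.6 and 361.4). In each of these 10 peaks the value of replicate 1 was the higher, as in most matched peaks, and signal is compared between peaks only within a list.

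The remaining 15 of the 25 strongest had pooled signals from 805.0 at CG34417 to 615.7 at egh, a glycosyltransferase of glycosphingolipid synthesis. They lay in or nearest to CG34417, CHES-1-like, a forkhead gene (785.5), Tre1, a G protein-coupled receptor of germ cell migration (758.5), prage (738.6) and Tis11, an mRNA decay factor (735.9). Further summits were at Tlk again (729.1), Lamtor5 (726.5), the Polycomb group gene ph-p (718.7), the bZIP gene Atf3 (709.8) and stas (685.2). The last 5 were at schlank, a ceramide synthase (665.0), pico (641.2), the metalloprotease gene AdamTS-B (633.3), the perilipin gene Lsd-2 (628.0) and egh. Of these 25 summits, 21 lay in introns, 15 lay within 2 kb of a TSS and 9 held an E-box within 50 bp. Over all 584 distal X summits, these counts were 471 (80.7%) in introns, 172 within 2 kb and 210 (36.0%) with an E-box. The summits nearest to Lamtor5 and Atf3 lay between genes. In their own lists, all 25 lay within the first 495 peaks of replicate 1 and the first 468 of replicate 2.

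Across the 584 peaks the replicates ordered the signal alike. Of them, 581 overlapped a peak of both replicate lists, each of which holds 30000 peaks, and the 3 that did not overlap one of replicate 1 did overlap one of replicate 2. Spearman's rho between the replicates was 0.802 and Pearson's r of log10 signal was 0.897 over these 581 peaks. This is a description across peaks, which share the same 2 libraries. The authors' list was thresholded for reproducibility, so that part of this agreement may follow from how the peaks were chosen. The signal in replicate 1 was 1.49 times that in replicate 2 in the median, with an interquartile range of 1.31 to 1.72. When the 7329 highest peaks of each replicate were taken, 446 of the 584 (76.4%) overlapped one in both, by 1 bp or more. A further 88 (15.1%) overlapped one of replicate 1 alone, 43 (7.36%) one of replicate 2 alone and 7 (1.199%) neither. Among distal autosomal peaks these shares were 80.1% in both, 11.8% in replicate 1 alone, 6.81% in replicate 2 alone and 1.32% in neither. The share in both was thus lower on X by this rule, with a difference of -3.71 points (Fisher's exact test, p = 0.0508).

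**Figure D1:**
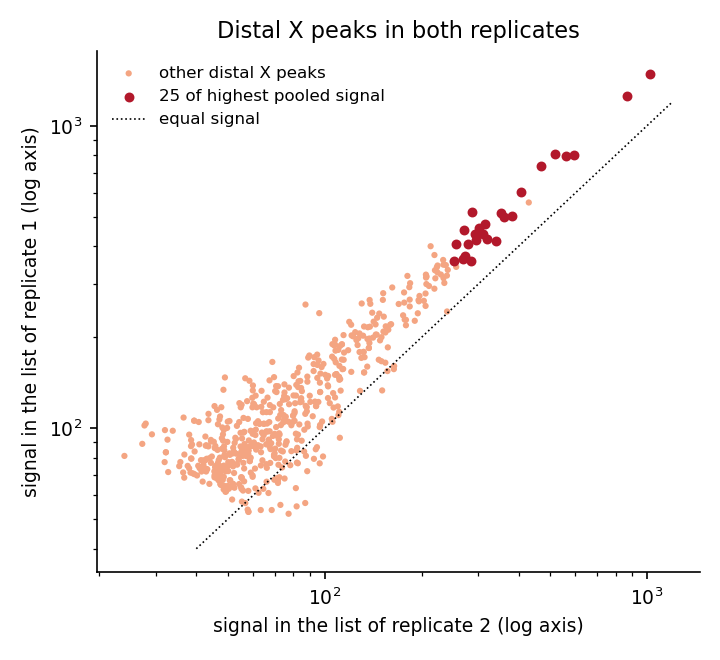
Signal of the 581 distal X peaks that overlap a peak in both replicate lists, replicate 2 on the x axis and replicate 1 on the y axis, in the authors' units on log axes. Dark points are the 25 of highest pooled signal, the dotted line marks equal signal, and most points lie above it, with a median ratio of 1.49.

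With overlap over 50% of both intervals required, 297 of 584 distal X peaks (50.9%, 95% Clopper-Pearson interval 46.7 to 55.0) were shared with the highest peaks of both replicates. The share was 52.0% among distal autosomal peaks (1138 of 2189). This difference of -1.13 percentage points did not pass the test (two-sided Fisher's exact test, p = 0.641). Among the 3664 highest peaks alone the difference went the other way, with X higher by 7.74 points, and there it passed (Fisher's exact test, p = 0.0133).

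Distal summits were denser on X than on the autosomes in the thresholded list. The size of that difference depended on whether whole repeat-rich stretches were included, and on the replicate. X carried 32.0 distal summits per Mb of sequence that itself lies over 1000 bp from a TSS (584 in 18.2 Mb). The autosomes carried 26.1 per Mb (2189 in 83.8 Mb). The ratio was 1.23 (95% interval 1.12 to 1.34, two-sided exact binomial test over peaks, p = 1.79e-05). When only the repeat-masked bases were left out, it was 1.22 (1.10 to 1.36, exact p = 0.000194), with 31.7 per Mb on X and 25.9 on the autosomes. Without whole 100 kb stretches in which over 35% of bases are repeat-masked, the ratio was 1.12 (1.02 to 1.23, exact p = 0.0173). In these repeat-poor stretches the list of replicate 1 alone gave 1.11 (1.01 to 1.22, exact p = 0.0224) and that of replicate 2 alone gave 1.03 (0.938 to 1.14, exact p = 0.490). Peaks are the units of these tests, so that the p-values say nothing of how embryo collections vary. The density tests also treat summits as independent, though 35.6% of the distal X summits had another distal summit within 2 kb. Their intervals and p-values make no allowance for such grouping.

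The order of the chromosome arms changed with the same choice. Over all distal sequence X was highest with 32.0 per Mb, followed by 3L with 28.5, 2L with 27.9, 3R with 25.02, 2R with 24.2 and the small chromosome 4 with 8.32. In repeat-poor stretches, 3L had 33.7 per Mb and X had 33.5, followed by 2R with 29.2, 2L with 29.1, 3R with 28.7 and chromosome 4 with 8.97. The stretches left out made up 6.203% of the distal sequence of X, 17.3% of that of 2R, 15.6% of 3L, 12.8% of 3R, 7.20% of chromosome 4 and 4.32% of 2L. They held 11 of the distal X summits and 1 of the autosomal ones. In the list of replicate 2, X stood at 30.4 per Mb and 3L at 33.1 in these stretches. X thus stood above every autosomal arm over all distal sequence, also in each replicate's list, but not above 3L in repeat-poor stretches.

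**Figure D2:**
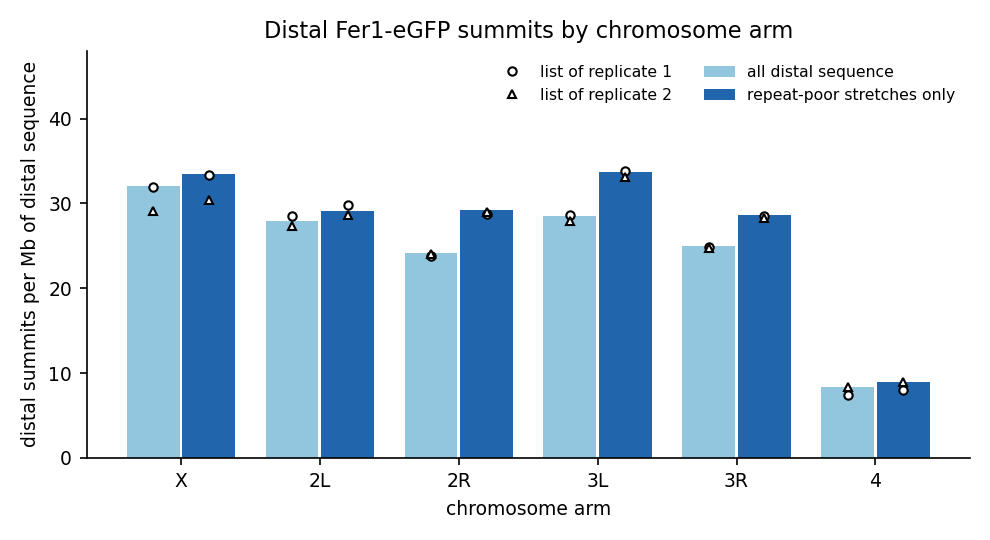
Distal summits per Mb of distal sequence on each chromosome arm, over all distal sequence (light bars) and over repeat-poor 100 kb stretches (dark bars). Bars use the thresholded list, and circles and triangles use the 7329 highest peaks of replicates 1 and 2. X is highest over all distal sequence (32.0), while 3L (33.7) and X (33.5) are close in repeat-poor stretches.

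Near TSSs the X showed no such excess. Summits within 1000 bp of a TSS came to 138.7 per Mb on X and 145.4 per Mb on the autosomes, a ratio of 0.954 (0.880 to 1.03, exact binomial test, p = 0.248). The distal ratio was 1.28 times the proximal one (1.14 to 1.45, exact conditional test, p = 5.54e-05). In repeat-poor stretches this factor was 1.18 (1.04 to 1.33, exact p = 0.00861), and with the list of replicate 2 it was 1.05 there (exact p = 0.487).

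The distal ratio also varied with the strength of the peaks. Among the 1832 peaks of highest signal it was 1.30 (1.07 to 1.57), and among ranks 1833 to 3664 it was 0.922 (0.751 to 1.12). It was 1.27 (1.05 to 1.52) for ranks 3665 to 5496 and 1.44 (1.21 to 1.71) for ranks 5497 to 7329. In repeat-poor stretches these 4 ratios were 1.18 (0.970 to 1.44), 0.829 (0.673 to 1.01), 1.17 (0.972 to 1.404) and 1.32 (1.11 to 1.57), so that only the weakest tier kept an interval above 1. The 3664 highest peaks together gave 1.09 (0.949 to 1.252, exact p = 0.211). For pooled peaks below the threshold the distal ratio was 1.14 (1.09 to 1.191), but there the proximal ratio was 1.28 (1.22 to 1.35), so that X was the denser in both kinds of sequence. Among all 30000 pooled peaks the distal ratio was 0.987 times the proximal one (0.931 to 1.05, exact p = 0.650). The difference between distal and proximal ratios thus passed the test in the thresholded list and not in the whole pooled list.

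**Figure D3:**
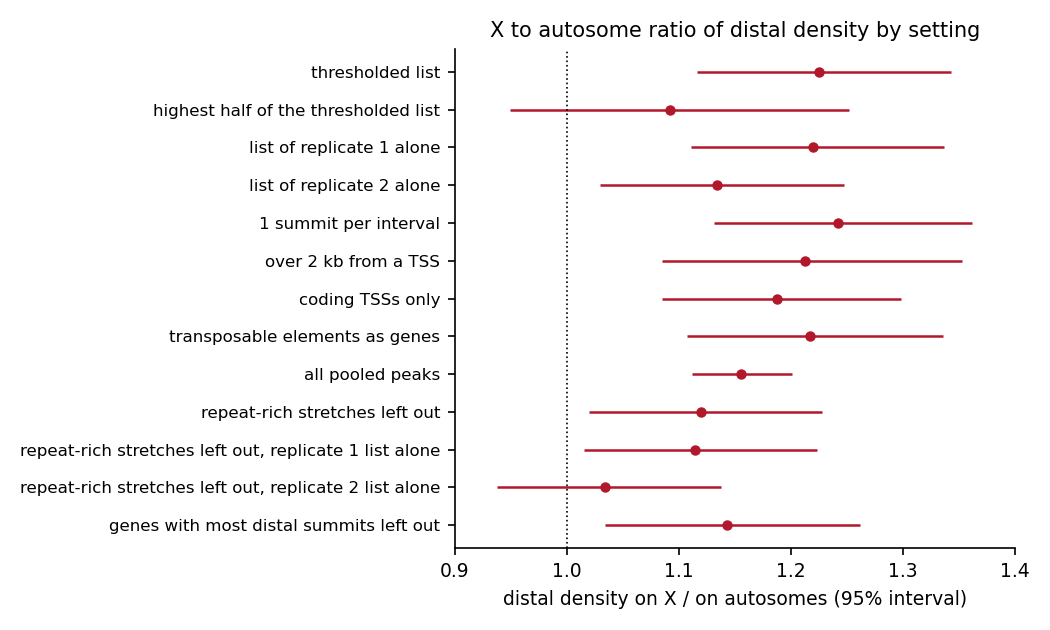
Ratio of distal summits per Mb on X to that on the autosomes (x axis) with its 95% interval, by the peaks or sequence used. The dotted line marks equal density. The thresholded list gives 1.23, and the interval reaches below 1 for the 3664 highest peaks (1.09) and for replicate 2 in repeat-poor stretches (1.03).

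Most of the distal X summits lay in introns. Introns held 471 of the 584 (80.7%, interval 77.2 to 83.8), while they make up 51.3% of the distal sequence of X. On the autosomes 1570 of 2189 (71.7%) lay in introns, which are 46.6% of distal sequence there. The shares differed by 8.93 percentage points (Fisher's exact test, p = 1.10e-05), and by 8.04 and 8.84 points in the lists of replicates 1 and 2. A further 82 distal X summits (14.04%) lay between genes, 28 (4.79%) in noncoding or untranslated exons and 3 (0.514%) in coding exons, which make up 14.5% of the distal sequence.

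Intronic sequence on X carried 50.3 distal summits per Mb and that of autosomes 40.2, a ratio of 1.251 (1.13 to 1.39, exact binomial test, p = 2.94e-05). In repeat-poor stretches the intronic ratio was 1.12 (1.01 to 1.247, exact p = 0.0306). Between genes the densities were 17.0 and 18.0 per Mb, a ratio of 0.946 (0.740 to 1.196, exact p = 0.683). The intergenic ratio in repeat-poor stretches was 0.862 (0.673 to 1.09). Noncoding and untranslated exons had a ratio of 1.04 (0.655 to 1.61), and coding exons one of 0.815 (0.152 to 2.85) from 3 X summits. Whether the intronic and intergenic ratios differ from each other was not tested.

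By distance, the densities fell from 51.6 per Mb of X at 1 to 2 kb from a TSS to 38.1 at 2 to 5 kb, 29.1 at 5 to 10 kb, 20.2 at 10 to 20 kb and 10.1 beyond 20 kb. The X to autosome ratio was 1.27 (1.06 to 1.503, exact p = 0.00728) at 1 to 2 kb and 1.21 (1.03 to 1.41, exact p = 0.0169) at 2 to 5 kb. It was 1.08 (0.875 to 1.32) at 5 to 10 kb and 0.994 (0.732 to 1.33) at 10 to 20 kb. Beyond 20 kb it was 2.12 (1.28 to 3.39) from 25 X summits, and 1.35 (0.820 to 2.17) in repeat-poor stretches. At 1 to 2 kb and 2 to 5 kb the repeat-poor ratios were 1.237 and 1.1995, both with intervals above 1. At 5 to 10 kb and 10 to 20 kb they were 1.02 (0.828 to 1.26) and 0.925 (0.679 to 1.24). These p-values are unadjusted over the 5 distance classes.

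**Figure D4:**
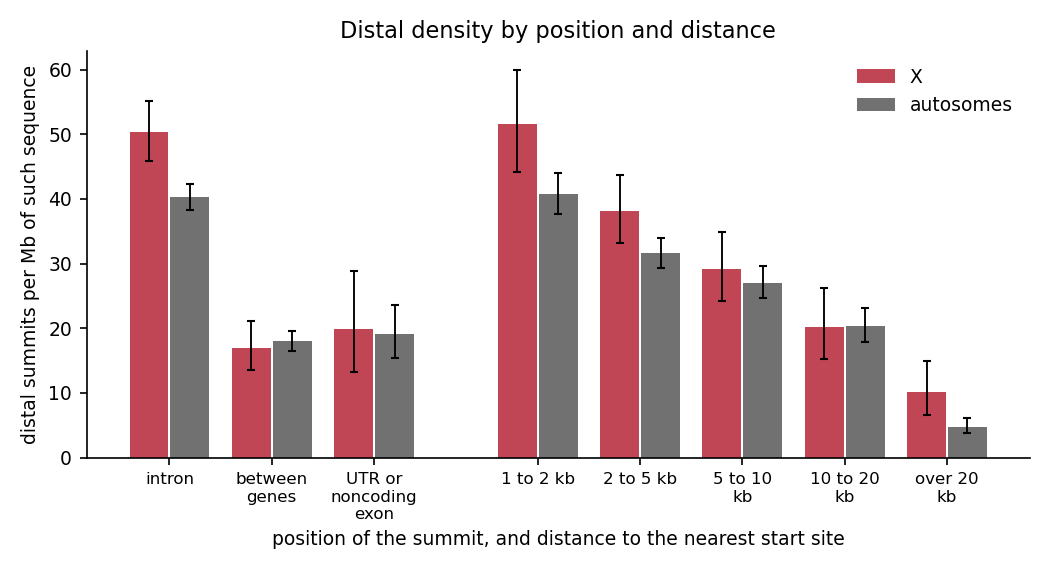
Distal summits per Mb of sequence of the same kind (y axis) on X and on the autosomes, by position (left 3 pairs) and by distance to the nearest TSS (right 5 pairs). Error bars are 95% Poisson intervals of the counts. Introns of X carry 50.3 per Mb against 40.2, and the values fall with distance on both.

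Along X itself the summits were uneven. The distal density was 34.9 per Mb in the first 5 Mb, 38.5 from 5 to 10 Mb, 45.3 from 10 to 15 Mb and 30.3 from 15 to 20 Mb. From 20 Mb to the end at 23.5 Mb, next to the centromere, it was 4.41 per Mb (13 summits), and 5.79 in the repeat-poor stretches of that end. Of the 584 summits, 208 (35.6%) had another distal summit within 2 kb, against 33.9% on the autosomes, a difference of 1.72 points that did not pass Fisher's exact test (p = 0.433). When summits up to 10 kb apart were joined, they formed 315 groups, of which 183 were single summits. The 19 groups of 5 or more held 115 summits.

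The groups with most members had 7 summits each, in Raf, Mnt, Tlk, CG14434 and CHES-1-like. In Raf the 7 summits lay within 8822 bp, and their median signal was 332.6. In CHES-1-like they lay within 12901 bp with a median signal of 394.6, and each of the 7 was above the median of all distal X peaks, with the lowest at 298.4. In CG14434 the median was 141.0, so that a dense group was not always a strong one. Groups of 6 were seen in Hr4, Nrg, Zdhhc8, Evi5, Ptp10D and HDAC4, among others.

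Longer genes more often had a distal summit. A distal summit lay in the span of, or nearest to, 313 of the 2196 coding genes of X (14.3%). The share was 7.43% (135 of 1818) for genes under 10 kb, 42.7% (132 of 309) for those of 10 to 50 kb and 66.7% (46 of 69) for those over 50 kb. The median length of genes with a distal summit was 13967 bp, and of the 1883 without one 2291 bp. A longer gene has more sequence that can meet the rule. Counted as distinct summits, genes under 10 kb accounted for 189 of the 584 (32.4%), those of 10 to 50 kb for 288 (49.3%) and those over 50 kb for 176 (30.1%), and a summit that falls to overlapping or neighbouring genes is counted in each class. Of the 584 summits, 502 lay within the span of a gene, and 380 (65.1%) lay downstream of their nearest TSS, against 61.5% on the autosomes.

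The gene with most distal summits was lncRNA:CR44357, a noncoding gene of 239347 bp with 17. It overlaps CG1677, whose span held 11 of the same summits. kirre, an immunoglobulin-type adhesion gene of myoblast fusion, had 13 in 394149 bp, and Tlk had 12 in 69764 bp. Hr4 had 11, lncRNA:CR44999 had 9, the teneurin gene Ten-a had 9, Raf and the receptor tyrosine phosphatase gene Ptp10D had 8 each and CHES-1-like had 7. Smr, CG14434, Mnt and RhoGAP19D also had 7, and CHES-1-like had the highest signal among them. Per 10 kb of distal sequence in the gene, kirre held 0.386 summits and Ten-a 0.344, against 3.75 in CHES-1-like, 2.38 in Raf and 2.28 in Tlk. CG14434, with 8081 bp of distal sequence, held 8.66. The signals of kirre's summits reached 538.9 and those of Ten-a 260.8, against 2118 in Tlk. Without the 10 such genes of X and the 10 of the autosomes with most distal summits, the density ratio was 1.14 (1.03 to 1.26, exact p = 0.00878).

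Genes of X that act in development were then counted by role, as having a distal summit in their span or nearest to them, against 14.3% of all X coding genes. Of 16 adhesion and guidance genes 9 had such a summit. These held 37 distinct summits, led in signal by kirre (538.9), Nrg, which encodes neuroglian (381.7), Fas2, which encodes fasciclin 2 (296.5), and the integrin gene mew (272.9). Of 25 channel, synapse and sensory signalling genes 10 had a summit, led by norpA (1320), the cAMP phosphodiesterase gene dnc (532.1), the gap junction gene Inx2 (274.5) and the potassium channel gene SK (274.3). The longest of the 15 without one were the gap junction gene shakB, which spans 165980 bp, and the diacylglycerol kinase gene rdgA, which spans 122409 bp.

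Among 19 signalling genes 7 had a distal summit, with Raf (1197), the kinase gene mnb (509.4), N, which encodes the receptor Notch (464.3), and sog, which encodes a BMP antagonist (306.2), in front. Of 36 transcription factor genes 8 had one. They were led by Hr4 (876.9), the bHLH gene Mnt (335.7), ovo (292.5), whose 2 summits lay upstream of it within lncRNA:CR44833, and CrebB (291.2). The longest without one were mamo, which spans 144412 bp, br, which spans 89738 bp, and bi, which spans 72792 bp. None was assigned either to the proneural bHLH genes ac, sc, l(1)sc and ase, which are at most 2430 bp long. Their spans hold only 0, 437, 96 and 1429 bp of distal sequence. Median gene lengths were 40940 bp in the adhesion list, 38596 bp in the channel list, 8197 bp in the signalling list and 10675 bp in the transcription factor list, and the shares with a summit were 56.3%, 40%, 36.8% and 22.2%. The lists are small (7 of 19 signalling and 8 of 36 transcription factor genes), and their shares were not compared by a test. The part of length in these counts was not tested.

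Of 6 genes of dosage compensation and sex determination, 1 had a distal summit (16.7%, against 14.3% of all X coding genes). The median gene length in this list was 2191 bp. Sxl, the switch gene of both processes, had it 1360 bp from a TSS in an intron, with a signal of 349.6 (216.8 in replicate 1 and 138.3 in replicate 2). The genes roX1, roX2, mof, snf and sisA had none. roX2 and sisA have no sequence over 1000 bp from a TSS in their spans, so that only a summit beside them could have been counted. The span of snf holds only 259 bp of such sequence.

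Whether distal X peaks were weaker or stronger than autosomal ones depended on the list used. In the thresholded list their median signal was 169.8 against 180.6, and 43.8% of them (256 of 584) lay above the median of all 7329 peaks, against 49.2% (1077 of 2189). The difference of -5.36 points passed the test (Fisher's exact test, p = 0.0224) but did not hold in the replicates' own lists. There it was -4.46 points in replicate 1 and -1.27 in replicate 2, and neither passed, nor did that of -4.19 points with the TSSs of coding genes alone (Fisher's exact test, p = 0.0701). Among the 3664 highest peaks, set against their own median, the direction reversed, and distal X peaks were more often strong by 8.58 points (Fisher's exact test, p = 0.0147). The X summits closest to the limit of the rule were those 1010 bp from a TSS, near CG14434 (121.9) and CBP (524.1), and just inside it were those at 995 bp at Fim (335.9) and at 991 bp at eas (236.7). The weakest of the 584 were nearest to Rbcn-3A (110.3), CG12640 (110.5) and Ptp10D (110.9).

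The low G+C content of the strongest summits was shared by the whole set. Mean G+C content within 50 bp of the summit was 33.4% (SD 8.73, n = 584), against 42.0% (SD 9.55) in the flanks and 42.2% over all distal sequence of X. The summit window was lower than its flank in 416 of 584 peaks (71.2%). At distal autosomal summits the mean was 34.8% (SD 9.70, n = 2189), with 42.3% in the flanks. A run of 6 or more A or T bases was present in 93.5% of X summit windows, 79.5% of flanks and 75.2% of all distal windows of X, which are adjoining windows of the same width over its distal sequence. Repeat-masked bases covered the summit itself in 23.1% of X peaks, and 22.4% of distal X sequence is masked.

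**Figure D5:**
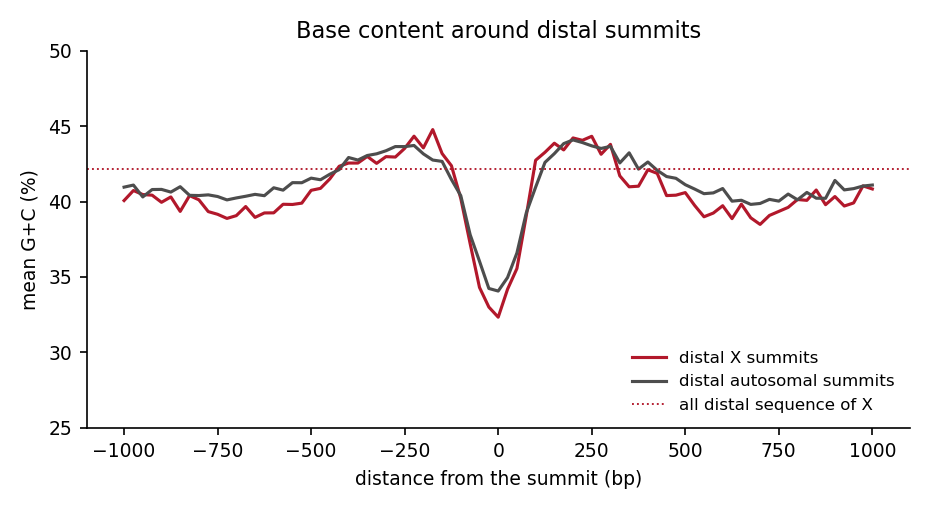
Mean G+C content (y axis, percent) by distance from the summit (x axis, bp) for the 584 distal X and 2189 distal autosomal summits, with the mean of all distal X sequence as a dotted line. G+C content falls to 32.3% at X summits and 34.1% at autosomal ones within about 100 bp.

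Short sequence words followed that base content. Of all 2080 hexamers, counted on both strands as present or absent in a window, 265 (12.7%) differed between X summits and their flanks (exact McNemar test, Benjamini-Hochberg adjusted p under 0.05). Of these, 128 were more frequent at the summit, 30 of them without G or C and 82 with a single G or C. The other 137 were less frequent, and 136 of them held 3 or more G or C bases. AAATAT was present in 33.0% of summit windows and 14.2% of flanks, ATATAA in 23.5% and 7.71%, ATATTA in 21.1% and 6.68%, TATTAA in 20.03% and 6.51%, and AATATT in 19.9% and 5.48%. In the other direction, CAGCCA was present in 2.40% and 9.76%, CGGCAA in 0.856% and 7.36%, CCCCCC in 1.199% and 6.85%, CCCCCA in 1.37% and 6.51%, and CCCTCC in 0.514% and 5.14%. With a control 1 kb away CCCCCC and CCCCCA no longer passed, and with windows of 25 bp to each side CAGCCA did not. Base content and these words moved together, and their parts were not separated.

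The E-box was not more frequent at the summits. CANNTG was present in 210 of the 584 summit windows (36.0%), in 41.3% of flanks and in 39.8% of all distal windows of X (exact McNemar test, adjusted p = 0.208). In the list of replicate 1 alone the summit minus flank difference was -9.79 points and passed (exact McNemar test, adjusted p = 0.00335), and in that of replicate 2 it was -5.64 points and did not. The forms CAGCTG (4.11% at the summit and 3.77% in the flank), CACCTG (2.91% and 2.40%), CAGATG (4.11% and 2.40%), CATATG (6.68% and 4.97%) and CACGTG (1.03% and 1.199%) are included in CANNTG, and none passed the test. A match to these letters is not evidence of binding, nor is its absence evidence against it.

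Of the other words in a panel of 14, ATATAT was more frequent at the summit (16.1% against 6.85%, exact McNemar test, adjusted p = 5.96e-06, 8.39% of all distal windows). TTTCCC (4.79% against 9.76%, exact test, adjusted p = 0.00788, 8.32% of all distal windows) and CACACA (7.53% against 13.7%, exact test, adjusted p = 0.00788, 9.25% of all distal windows) were less frequent. None of the 3 passed in every setting. ATATAT did not pass with windows of 25 bp to each side. TTTCCC did not pass there, without replicate 1 or among the 3664 highest peaks, and CACACA did not pass among those peaks or with a control 1 kb away. GAGAGA, the core of GAGA factor sites and part of sites of the MSL complex, was present in 4.45% of summits and 5.65% of flanks (3.70% of all distal windows). AAAAAA (26.9% and 25.2%), AGATAA (8.56% and 5.48%), CAGGTA (1.71% and 1.54%) and TATCGATA (0.342% and 0.514%) did not pass either.

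Summit sequence of X did not differ from that of the autosomes in any single word by these tests. Of the 2080 hexamers, 0 differed between X and autosomal summit windows at an adjusted p under 0.05 (0%, Fisher's exact test per hexamer), with 163 at an unadjusted p under 0.05 and a smallest adjusted p of 0.129. In flank windows 0 differed as well (0%), with 91 unadjusted. The smallest p in each direction belonged to GTTTCA (11.0% of X and 6.26% of autosomal summits) and GCGCAA (0.856% and 3.79%). In the list of replicate 1 alone, 3 hexamers passed. TAACTA (13.2% of X and 6.93% of autosomal summits) and AGTTAA (13.9% and 7.62%) were the higher on X, and CGGCAA (1.03% and 4.15%) was the lower. They were named after their values were seen. Of the 14 panel words 0 differed in this comparison either, with ATATAT at 16.1% of X and 12.8% of autosomal summits (Fisher's exact test, unadjusted p = 0.0480, adjusted p = 0.383), which is the only unadjusted p under 0.05 among them. In flank windows 1 panel word differed, AAAAAA, which was present in 25.2% of X and 19.6% of autosomal flanks (Fisher's exact test, adjusted p = 0.0474).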

How the data were processed

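The data were peak lists of 2 biological replicates of ChIP-seq, and 4 lists on dm6 were used, the IDR-thresholded, the pooled and both replicate lists. The authors deposited for each peak an interval, a signal value in their own units and a summit offset. The aligner, peak caller, read filters and IDR threshold were not given in the sources used here. The thresholded list is the 7329 pooled peaks of highest signal. Summits are the deposited start plus the offset, written 1-based, and 4 of the 7329 summits fall 1 base past the end of their interval. Lists on dm3 were not used.

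Sequence was read from the Release 6 assembly of the reference, and TSSs from Ensembl release 115 without transposable elements, which gave 23581 positions. Distances were taken to the nearest TSS of any gene, and densities used bases other than N over the same distance from a TSS. Density ratios were tested by exact binomial tests, with intervals from Clopper-Pearson bounds, shares by Fisher's exact tests, and paired windows by exact McNemar tests with Benjamini-Hochberg adjustment over 14 panel words or 2080 hexamers. All tests were two-sided. A replicate's peak matched a thresholded peak where the intervals overlapped by at least 1 bp, with the highest taken, or over 50% of both where stated. For "without replicate 2", the 7329 highest peaks of replicate 1 stood in for the thresholded list, and the reverse.

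Genes were named by rule: those holding or nearest to the 25 strongest distal X summits, the 10 with most distal summits in their span, up to 4 members of each gene list by signal, every panel word, and 5 hexamers in each direction. Genes outside this rule were named after their values were seen. They were those of ties, summit groups, the rule's edge and the weakest peaks, and list members without a summit. Ties in the number of distal summits were ordered by highest signal. All listed symbols were found, 3 of them under another form of the name (phl as Raf, and roX1 and roX2 with an lncRNA prefix). The members, gene lists and tests were chosen with earlier results of these data known, and the repeat-rich stretches and the 10 genes were left out as alternatives chosen after the data were seen. The code was tested on simulated data. The tools were Python (version 3.11.15), pandas (2.3.3), scipy (1.17.1), numpy (2.4.6) and matplotlib (3.10.9), and the random seed was 1.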

Additional observations from a re-analysis of the deposited data

How the results depend on the processing

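The density ratio, 1.23 in the thresholded list, stayed between 1.13 and 1.27 with each replicate's own list, 1 summit per interval, a limit of 2 kb, coding TSSs, transposable elements counted as genes, all pooled peaks and each autosomal arm or chromosome 4 left out. It was 1.22 over bases not repeat-masked and 1.12 without repeat-rich stretches. It no longer passed the test for the 3664 highest peaks (1.09) or for replicate 2 without repeat-rich stretches (1.03). The factor between distal and proximal ratios, 1.28, then came to 1.15 and 1.05, and to 0.987 among all pooled peaks. The cause of these shifts was not tested. For the 3664 highest peaks, against their own median signal, the difference in strong peaks was 8.58 points and that in replicate overlap 7.74 points, both in the opposite direction to the full list and both past the test (Fisher's exact test, p = 0.0147 and 0.0133). Leaving out 1 replicate gave differences in strong peaks of -4.46 to -1.27 points and in clustered summits of -2.32 to 0.807 points. It gave 0 to 3 hexamers between X and autosomes and 164 to 252 between summit and flank. The share of clustered summits differed by -0.993 points beyond 2 kb, and that of strong peaks by -4.19 points with coding TSSs. Panel words past the test fell from 3 to 1, and hexamers from 265 to 87, with the 3664 highest peaks, where fewer windows are compared. Windows of 25 bp to each side gave 1 word and 67 hexamers, and a control 1 kb away gave 132 hexamers. The intron share kept its direction and passed the test in every setting in which it was computed. Overlap with both replicates was not recomputed for a replicate's own list, which overlaps itself. No paired analysis was possible because all samples formed 1 group. Peaks near the threshold differ between replicates, and with 2 replicates and unknown depth the variation between embryo collections could not be measured.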
